A study of Mus musculus with 34 samples.

Results

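The Hox cluster genes are the 38 protein-coding genes, out of 23331 genes in the table, whose symbols name a Hox cluster and a paralog number. They were chosen by symbol and gene type, not by expression, and comprise 11 genes of the HoxA cluster on chromosome 6, 10 of HoxB on chromosome 11, 8 of HoxC on chromosome 15 and 9 of HoxD on chromosome 2. The study sequenced bulk RNA of mouse kidneys and of 2 culture models, 34 samples in all, with 2 in each of 17 groups. Wild-type kidneys came from embryonic days E12.5 and E15.5 and from postnatal days 0, 9 and 45 (P0, P9, P45). Explants, which are cultured kidneys of stage E12.5, had 7 groups: a day 7 group (D7) grown with 10% FBS (fetal bovine serum), a D17 group in stage-based medium v0, D3, D7, D13 and D19 groups in v1, and a D19 group in v2. Kidney progenitor assembloids (mKPA), built from progenitors expanded in culture, made 5 groups in medium v2: D3, D7, D13, and sets r1 and r2 at D19. All explants and assembloids had the Hoxb7-venus genotype, a fluorescent reporter under the Hoxb7 promoter, so genotype and culture cannot be told apart in comparisons with kidneys. Explants were cultured in v1 from D3 to D19 and assembloids in v2, so tissue source and medium cannot be told apart either, except at D19. Whether the 2 samples of a group stem from different animals or cultures is not in the labels, so p-values measure only the spread between these samples, which may be technical.

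Values are the deposited TMM-normalized signals per gene. The lowest value of a library is called its lowest step here, and a gene listed at it was not measured above it. The implied depth, the column total divided by that step, was 15243962 to 28459391 steps, except for 7772347 in D19 v2 explant replicate 2. Changes are log2 differences ± SE from limma on log2(value + 0.962), which understates the changes of low genes. A gene is called higher or lower here where its Benjamini-Hochberg adjusted p over 19264 tested genes was under 0.05 and its log2 change reached 1 in size. Of the 38 Hox genes 37 passed the filter on low values, and Hoxb13 did not. Hoxc13 passed it only through the FBS explants, where it was highest. In bulk tissue, fewer cells of a type and less RNA per cell cannot be told apart. Markers of other tissues were high in the E12.5 kidneys: the 8 neuron markers summed to 182 and 223 there, against 19.4 and 17.1 at E15.5.

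Hox genes encode transcription factors that share a DNA-binding homeodomain. Along the body axis they are switched on in the order in which they lie in their clusters, with low paralog numbers anterior and early and high numbers posterior and late. Genes with the same number in different clusters, the paralogs, descend from one ancestral gene and often act redundantly. In the mouse kidney the paralogs Hoxa11, Hoxc11 and Hoxd11 act together in the metanephric mesenchyme, where their products work with Eya1 and Pax2 on the targets Six2 and Gdnf, and loss of all of them blocks ureteric bud induction. Genes of group 13 pattern the limb, the hindgut and the urogenital outlet. Retinoic acid activates anterior Hox genes.

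The homeoboxes of the group 11 genes, the coding stretch that binds DNA, are shown because these paralogs had the largest Hox changes from P0 to P45 on the log2 scale used here, which understates those of lower genes, and their reads could be confused where sequences are shared. Each has 180 coding bases, taken from GENCODE M21 transcripts, and capitals mark bases that differ from Hoxa11.
Hoxa11 homeobox: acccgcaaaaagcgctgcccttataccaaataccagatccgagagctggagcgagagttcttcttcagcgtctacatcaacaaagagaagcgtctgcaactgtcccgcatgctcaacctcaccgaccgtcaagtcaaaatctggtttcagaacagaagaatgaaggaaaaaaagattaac
Hoxc11 homeobox: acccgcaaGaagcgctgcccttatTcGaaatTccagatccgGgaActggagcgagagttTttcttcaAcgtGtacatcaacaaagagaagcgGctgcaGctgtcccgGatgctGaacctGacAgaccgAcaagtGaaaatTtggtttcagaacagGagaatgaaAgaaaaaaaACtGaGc
Hoxd11 homeobox: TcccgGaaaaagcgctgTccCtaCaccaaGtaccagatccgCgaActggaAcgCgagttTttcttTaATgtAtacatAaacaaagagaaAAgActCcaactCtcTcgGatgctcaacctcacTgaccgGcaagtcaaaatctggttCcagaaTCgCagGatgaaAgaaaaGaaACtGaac
Hoxc11 differed from Hoxa11 at 24 and Hoxd11 at 35 of the 180 bases. Over all 38 homeoboxes, pairs with the same paralog number shared a median of 80.6% of bases and 93.3% of residues, against 60.6% and 61.7% for pairs from other clusters with other numbers. The longest exact run shared by the transcripts of any pair was 52 bases, between Hoxa6 and Hoxb4. Shared spans are a further limit within clusters. How the counting treated strand and shared exons was not given in the sources used here. Of the 38 genes 11 overlap another Hox gene on the same strand (Hoxa3 with Hoxa4, Hoxa5 and Hoxa6; Hoxc5 with Hoxc6 and Hoxc8 to Hoxc10; Hoxd3 with Hoxd4) and 14 overlap an annotated gene on the opposite strand, so their values are uncertain to that extent.

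The regions upstream of 3 HoxD genes are shown because Hoxd13 and Hoxd12 fell, and Hoxd8 rose, between E12.5 and P0. They are the 250 bases before each start, from the RefSeq promoter table, build GRCm38.p6, at chr2:74667975-74668224, chr2:74674763-74675012 and chr2:74704365-74704614, all on the plus strand. Capitals mark matches, on either strand, to the CCAAT box and to the TATA box, spelled TATAAA here, with overlapping matches joined.
Hoxd13 upstream: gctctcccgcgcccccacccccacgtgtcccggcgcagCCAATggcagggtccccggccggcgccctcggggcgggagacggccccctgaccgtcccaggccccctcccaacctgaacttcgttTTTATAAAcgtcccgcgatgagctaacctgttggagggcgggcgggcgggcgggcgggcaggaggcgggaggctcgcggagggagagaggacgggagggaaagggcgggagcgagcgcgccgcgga
Hoxd12 upstream: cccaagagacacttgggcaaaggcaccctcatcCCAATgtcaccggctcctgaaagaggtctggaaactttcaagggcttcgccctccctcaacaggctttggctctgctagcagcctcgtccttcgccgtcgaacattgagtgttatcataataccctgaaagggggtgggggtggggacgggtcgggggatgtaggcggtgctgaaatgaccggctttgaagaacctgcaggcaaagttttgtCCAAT
Hoxd8 upstream: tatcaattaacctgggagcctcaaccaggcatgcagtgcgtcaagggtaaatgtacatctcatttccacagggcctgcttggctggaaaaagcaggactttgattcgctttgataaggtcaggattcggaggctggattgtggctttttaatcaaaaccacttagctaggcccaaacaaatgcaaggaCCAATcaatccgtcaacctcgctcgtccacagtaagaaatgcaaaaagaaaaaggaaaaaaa
A CCAAT box was found upstream of all of them, and a TATA box upstream of Hoxd13 alone among the 3. Of 24 Hox promoters from 22 genes in that table, 14 (58.3%) held a CCAAT box, against 33.8% of all 32851 promoters of the same length. A TATA box was found in 16.7% of Hox promoters and 12.4% of all. CpG dinucleotides in the Hox promoters ranged from 2 to 35, against a median of 6 over all promoters. These matches are descriptions of the letters and were not related to the expression values.

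Summed over the 38 genes, the Hox signal was nearly level in the kidney up to birth, at 1466 at E12.5, 1467 at E15.5 and 1470 at P0 (means of 2 libraries), and then 1704 at P9 and 1063 at P45. The totals of the columns rose as well, from 960788 and 913789 at P0 to 1036301 and 1150724 at P9 and 1433483 and 1503681 at P45. The sums after birth therefore depend on the scaling. The clusters moved against each other beneath the sum over all 38 genes. HoxA summed to 484 at E12.5 and 341 at P0, HoxC to 248 and 136, and HoxB to 342 and 557. HoxD, at 392 at E12.5 and 437 at P0, reached 785 at P9, the highest HoxD sum of the 17 groups. In culture the highest total, 2222, was that of the D3 assembloids, with 954 from HoxB.

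Per kilobase of coding sequence the highest Hox levels, averaged over the 17 group means, belonged to the middle of the clusters: 193 for Hoxb8, 157 for Hoxb9, 145 for Hoxa10, 142 for Hoxd8 and 115 for Hoxa9. Several genes at the ends were low, though Hoxc4, the first gene of HoxC, averaged 39.0. On the same scale Hoxb1 averaged 0.723, Hoxd1 1.54, Hoxa13 1.10 and Hoxd13 1.55. Hoxb13, a posterior gene of the hindgut and prostate, was at the lowest step in 32 of 34 libraries, with 1.28 in E12.5 replicate 2 as its highest value. Between the lowest and the highest of the 17 group means Hoxa9 varied least, 1.68-fold (74.9 in FBS explants, 126 in D3 assembloids), and 9 genes varied less than 3-fold. In the 13 comparisons between groups 24 Hox genes were called at least once. Hoxa7, Hoxa9, Hoxa10, Hoxb3, Hoxb4, Hoxc5, Hoxc6, Hoxc8, Hoxc9, Hoxc13, Hoxd3, Hoxd9 and Hoxd10 never were, and Hoxb13 was not tested.

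**Figure D1:**
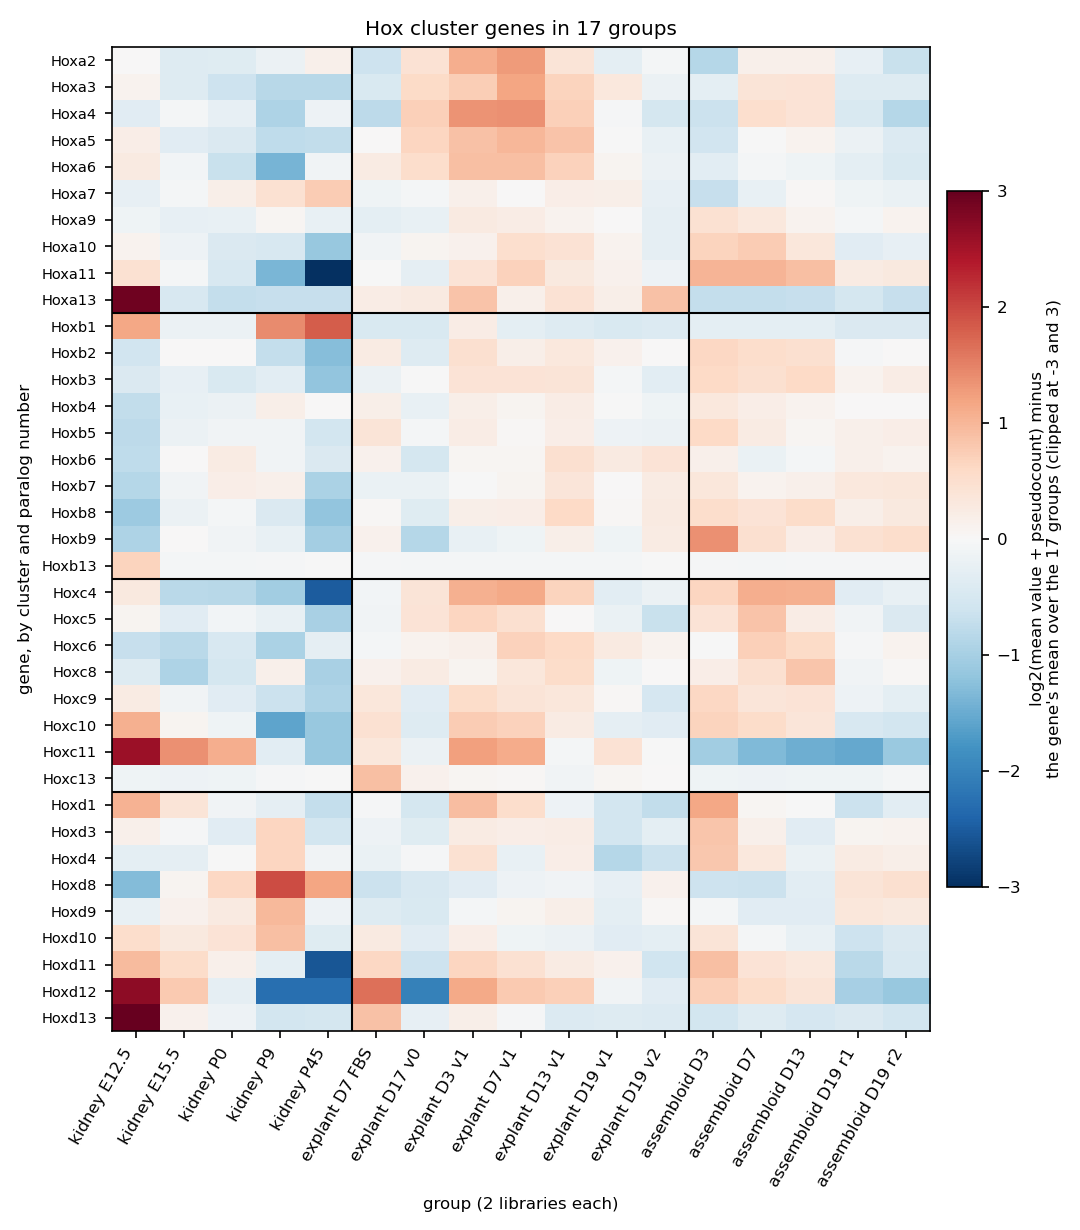
Heat map of Hox genes (rows, by cluster and paralog number) in the 17 groups (columns, 2 libraries each); color is log2(mean value + 0.962) minus the gene's mean over the groups, clipped at 3 in size. Hoxa13, Hoxd12 and Hoxd13 are highest at E12.5, Hoxd8 at P9, Hoxa2 to Hoxa6 in v1 explants of D3 and D7, and the group 11 genes are low at P45.

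Genes next to each other in a cluster had more similar profiles than paralogs did. Over the 17 group means of log2 values, and among 32 genes, leaving out those low in all groups, the median Pearson r was 0.76 for 27 neighbour pairs, 0.41 for 86 other pairs within a cluster, 0.19 for 31 pairs with the same paralog number and 0.19 for 352 other pairs. These r values are descriptions without a test, since the pairs share genes, libraries and normalization. For the 24 neighbour pairs whose spans do not overlap the median was 0.73. The highest neighbour values were those of Hoxc9 and Hoxc10 (0.89), Hoxb7 and Hoxb8 (0.89) and Hoxa10 and Hoxa11 (0.87). Neighbours were not always alike: Hoxa7 and Hoxa9 stood at -0.28. Among paralogs Hoxa11 with Hoxd11 stood at 0.80, and Hoxc9 with Hoxd9 at -0.39. Hoxa13, Hoxd13 and Hoxc11 entered these pairs only through their E12.5 levels, so r values of pairs with them are not given. Those pairs are still part of the counts and medians above, which rest on that group to that extent.

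Between E12.5 and P0 kidneys the Hox genes called lower lay mostly toward the ends of the clusters, and those called higher in the middle. In P0 against E12.5 kidneys 13 of 37 tested Hox genes were called (35.1%), against 19.5% of all genes tested. Of these 9 were lower (6.81% among all genes) and 4 higher (12.7%). The median log2 change was -0.16 for the Hox genes and 0 for all genes. Of the 7 tested genes of groups 11 to 13, 4 were called lower and none higher, and so were 4 of the 12 genes of groups 1 to 4. Of the 11 genes of groups 5 to 8, 4 were called higher and none lower. Of the 7 genes of groups 9 and 10, 1 was called lower and none higher. Called or not, 4 of 12 changes were positive in groups 1 to 4 and 7 of 11 in groups 5 to 8. By cluster, 7 of 9 tested changes were positive in HoxB (median 0.66), 2 of 11 in HoxA (-0.64), 1 of 8 in HoxC (-0.38) and 3 of 9 in HoxD (-0.49).

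Hoxd13, Hoxa13 and Hoxd12 fell most, whereas Hoxc13, also of group 13, was at the lowest step at both stages. Hoxd13 measured 16.8 and 25.7 at E12.5, 1.09 and 0.259 at E15.5, 0.215 and 0.547 at P0, and was at the lowest step in all P9 and P45 libraries. Both E12.5 libraries were far above every other library of the series, the next being 2.79 in FBS explant replicate 1. Hoxd13 fell by 4.03 ± 0.27 on the log2 scale from E12.5 to P0 (limma, adjusted p = 6.37e-13). Hoxa13 measured 9.79 and 13.2 at E12.5, 0.332 and 0.129 at E15.5, and was at the lowest step in both libraries at P0. It was at least 78.5-fold lower at P0, with 3 steps per library as the floor (log2 change -3.61 ± 0.34, adjusted p = 7.71e-10). Hoxd12 measured 29.2 and 31.9 at E12.5, 8.07 and 6.90 at E15.5, 2.92 and 3.33 at P0, and the lowest step at P9 and P45. Each stage up to P9 lay below the one before it, and the change to P0 was -2.95 ± 0.29 (adjusted p = 2.05e-09). Evx1 and Evx2, the even-skipped homeobox genes beside the posterior ends of HoxA and HoxD, fell too (-2.36 and -1.95), as did Hottip, a noncoding RNA beside Hoxa13 (-1.17). Evx1 measured 3.26 and 5.40 at E12.5 and was at the lowest step at E15.5 and P0.

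Most of that fall lay before E15.5. With E15.5 in place of E12.5 kidneys, an alternative chosen after seeing the data, 1 Hox gene was called instead of 13, against 5.06% of all genes, and Hoxd12 was that gene (-1.05; 0.748% of all genes were lower). Hoxd13 then changed by -0.25 and Hoxa13 by -0.23. Markers of neighbouring tissues fell beside these posterior genes from E12.5 to P0: 8 of 8 neuron markers were called lower, 5 of 5 tested skeletal muscle markers (sums 180 and 103 at E12.5, 24.6 and 29.7 at P0), 4 of 5 tested adrenal markers (69.0 and 81.9, then 5.15 and 7.11) and 3 of 5 cartilage and body wall markers (256 and 241, then 93.9 and 87.6). At P0 the neuron markers summed to 13.9 and 13.1, with Isl1 at the lowest step, and Myog, Dbh and Pax1 were there as well. Markers of kidney cell types changed too. Lower were 5 of 8 stroma (1 higher), 4 of 8 nephron progenitor (2 higher) and 2 of 7 ureteric tip markers (none higher). Higher were 7 of 7 tubule, 6 of 9 ureteric trunk and collecting duct and 4 of 5 podocyte markers, and none of these was lower. The part of all these markers in the changes of the Hox genes was not tested.

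Other posterior and anterior genes were called lower with smaller changes. Hoxc11 measured 20.6 and 18.3 at E12.5 and 5.53 and 7.21 at P0 (-1.48 ± 0.29, adjusted p = 8.14e-05). Hoxc10 measured 132 and 123 at E12.5, 62.7 and 64.3 at E15.5, and 56.7 and 52.5 at P0 (-1.21 ± 0.16, adjusted p = 1.94e-07). The Hoxc10 values at E15.5 lay near those at P0, and neither stage overlapped E12.5. Hoxc4 (-1.14), Hoxb1 (-1.33) and Hoxd1 (-1.27) fell as well, the last 2 from levels of 4 or less. Without P0 replicate 1 the Hoxc4 change was -0.94 and that of Hoxd1 -0.66, so neither was then called.

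Hoxd8 rose most. It measured 41.3 and 42.6 at E12.5, 110 and 114 at E15.5, 168 and 157 at P0, 372 and 448 at P9, and 214 and 263 at P45. Each stage up to P9 was above the one before without overlap, and the highest culture value was 151. The rise to P0 was 1.93 ± 0.10 (adjusted p = 1.73e-15). The HoxB genes Hoxb6, Hoxb7 and Hoxb8 rose together by 1.01, 1.06 and 1.03, just past the threshold. Hoxb8 measured 62.2 and 61.6 at E12.5, 117 and 120.1 at E15.5, and 117 and 139 at P0. These calls were lost without P0 replicate 2, with changes of 0.86 for Hoxb6, 0.89 for Hoxb7 and 0.91 for Hoxb8, which left Hoxd8 as the gene called higher. Without E12.5 replicate 1 Hoxb6 changed by 0.98, and without E12.5 replicate 2 Hoxb7 changed by 0.96. Hoxb9 changed by 0.82 and was not called. Genes for Hox cofactors and modulators fell over the same interval. The list holds the Pbx and Meis genes, whose proteins bind DNA with Hox proteins, and also Pknox1, Pknox2 and Gmnn. Of its 10 genes 7 were lower, led by Meis1 (-1.77), Meis3 (-1.71) and Meis2 (-1.66).

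**Figure D2:**
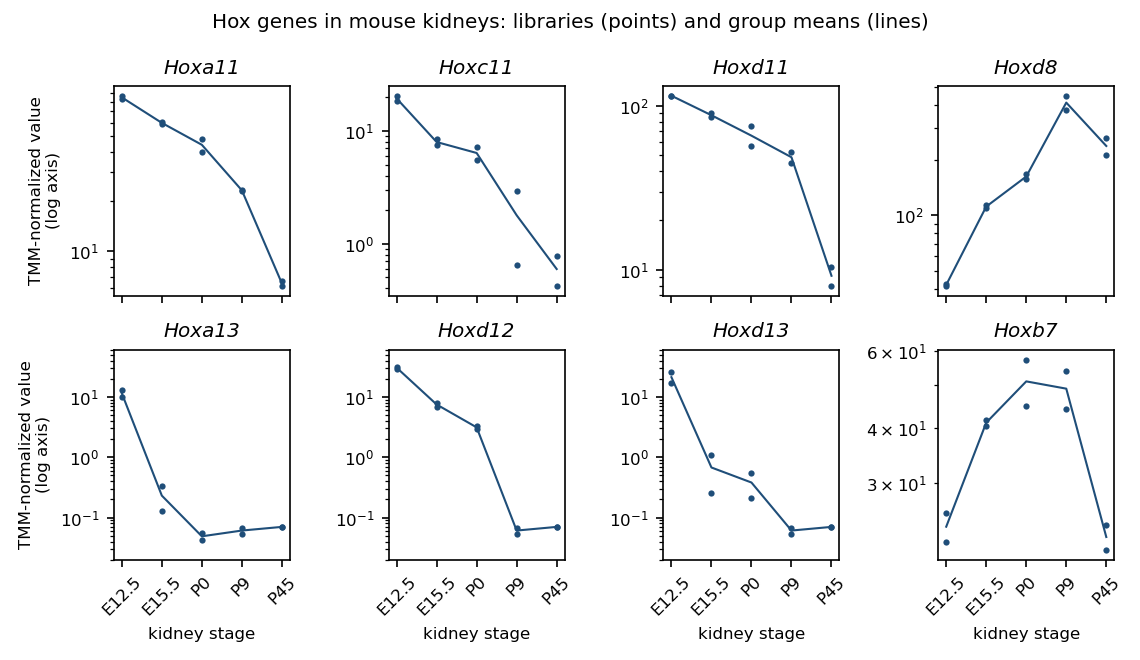
TMM-normalized values (log axis) of 8 Hox genes in kidneys of 5 stages; points are libraries and lines join the group means. Hoxa11 and Hoxd11 fall at each stage to 6.39 and 9.18 (means) at P45, Hoxd8 peaks at P9, and Hoxa13, Hoxd12 and Hoxd13 reach the lowest step.

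From birth to P45 the group 11 genes fell. Of 37 tested Hox genes 10 were called (27%), close to the 27.5% called among all genes, with 9 lower (13.8% among all genes) and 1 higher (13.7%). The median change was -0.43 for the Hox genes and -0.01 for all genes. Hoxa11 measured 87.4 and 83.0 at E12.5, 58.8 and 60.7 at E15.5, 40.1 and 48.0 at P0, 23.1 and 23.6 at P9, and 6.64 and 6.14 at P45. Hoxd11 measured 116 and 115 at E12.5, 90.0 and 85.4 at E15.5, 56.6 and 75.0 at P0, 44.7 and 52.4 at P9, and 10.4 and 7.93 at P45. For both genes every stage lay below the one before without overlap. From P0 to P45 Hoxd11 changed by -2.72 ± 0.14 (adjusted p = 2.81e-15) and Hoxa11 by -2.61 ± 0.11 (adjusted p = 2.18e-17). Hoxc11, the lowest of the 3, measured 2.92 and 0.644 at P9 and 0.770 and 0.419 at P45 (-2.24 ± 0.29 from P0, adjusted p = 1.32e-07). Hoxa11os, the antisense gene that overlaps Hoxa11 and whose reads may not be told apart from it, fell by 2.7. Hoxd12 was at least 14.9-fold lower at P45, at the lowest step.

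Genes with which the group 11 proteins act in nephron progenitors fell in the same interval. Of 9 listed genes 6 were lower and none higher: the targets Six2 (-6.17) and Gdnf (-5.02), the partner Eya1 (-5.45), and Osr1 (-3.01), Wt1 (-2.64) and Pax2 (-1.45). Six2 measured 86.3 and 62.5 at P0, 0.612 and 0.322 at P9, and the lowest step at P45. At P9, when Six2 was already below 1, Hoxd11 was still at 44.7 and 52.4. Markers of nephron progenitors (6 of 8 lower and 1 higher, sums 235 and 179 at P0, 50.0 and 51.2 at P45, with Six2 and Eya1 at the lowest step), ureteric tips (6 of 7 lower) and stroma (6 of 8 lower, 748 and 774 to 270 and 248) fell beside these Hox genes. Their part in the Hox changes was not tested.

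Outside group 11, Hoxc4 (-1.66), Hoxb2 (-1.27), Hoxb7 (-1.14), Hoxb8 (-1.13) and Hoxc10 (-1.02) were lower at P45. Hoxc4 measured 12.0 and 16.2 at P0, 14.7 and 9.18 at P9, and 3.78 and 3.77 at P45. Hoxb7 measured 25.6 and 22.0 at E12.5, 40.5 and 41.8 at E15.5, 44.9 and 57.3 at P0, 44.3 and 54.1 at P9, and 24.1 and 21.1 at P45, so its adult range overlapped the E12.5 range. Without P0 replicate 2 Hoxb7 changed by -0.96, and without P0 replicate 1 or P45 replicate 1 Hoxc10 changed by -0.97 or -0.82, so they were then not called. Hoxb1, in the mouse a gene of the hindbrain, was the gene called higher (1.86 ± 0.26, adjusted p = 5.2e-07). It measured 0.300 and 0.219 at P0, 3.20 and 2.26 at P9, and 1.96 and 5.79 at P45, and all its values after birth lay above the P0 values. When columns were rescaled to equal totals, which moved the median of all genes by -0.50, 20 Hox genes were called, 19 of them lower, and the 10 named were among them.

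The HoxD genes from Hoxd8 to Hoxd10 were highest at P9. Hoxd9 measured 82.4 and 106 at P0, 151 and 158 at P9, and 64.6 and 74.1 at P45. Hoxd10 measured 48.6 and 52.2 at P0, 66.9 and 74.1 at P9, and 31.7 and 26.5 at P45. In both the P9 libraries lay above every other library of the series. Of the other group 10 genes, Hoxa10 measured 195 and 177 at E12.5, 148 and 159 at E15.5, 137 and 118 at P0, 127 and 119.7 at P9, and 71.6 and 83.9 at P45. Hoxc10 was at 14.3 and 24.4 at P9 and 22.8 and 30.5 at P45. P9 was in none of the tested comparisons.

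In D3 v1 explants some anterior and middle genes of HoxA and HoxB were higher than in kidneys of the stage the explants were taken from. In D3 v1 explants against E12.5 kidneys 9 of 37 tested Hox genes were called (24.3%), against 8.48% of all genes. Of these 5 were higher (5.27% among all genes) and 4 lower (3.21%). HoxB had 3 genes called higher and none lower (median change 0.85), and HoxA 2 higher and 1 lower (0.40). The median change was 0.77 in groups 1 to 4 and 0.82 in groups 5 to 8. Hoxa4 measured 4.09 and 4.84 in E12.5 kidneys and 17.5 and 15.3 in D3 explants (1.68 ± 0.23, adjusted p = 1.68e-06). Hoxa2 measured 6.83 and 6.73, then 15.1 and 15.8 (1.08 ± 0.22, adjusted p = 0.000405). Neither gene overlapped between the groups, and in both the D3 values were above those of all 10 kidneys. Hoxb8 (1.27), Hoxb2 (1.04) and Hoxb5 (1.01) were also higher. Hoxb2 measured 37.4 and 38.7 in E12.5 kidneys and 79.8 and 78.8 at D3, and Hoxb8 reached 149 and 153. Without E12.5 replicate 2 or D3 explant replicate 2 the change of Hoxb5 was 0.91 or 0.95. With a pseudocount 4 times larger Hoxa2 (0.86), Hoxb2 (0.99) and Hoxb5 (0.92) were not called, nor were Hoxa2 (0.92) and Hoxb5 (0.90) after quantile normalization. Against E15.5 kidneys 7 of 37 Hox genes were called, against 7.41% of all genes, all of them higher (3.03% among all genes), with Hoxa2 (1.51) and Hoxa4 (1.42) among them, whereas Hoxb2, Hoxb5 and Hoxb8 changed by 0.46, 0.40 and 0.35 and were not called.

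Posterior genes were lower at D3 than at E12.5: Hoxd13 (-3.70 ± 0.27, adjusted p = 2.24e-11), Hoxa13 (-2.17), Hoxd12 (-1.54) and Hoxc11 (-1.34). Hoxd13 measured 0.748 and 0.688 and Hoxa13 0.848 and 3.20 in the D3 explants. These directions changed with the stage set against the explants: against E15.5 kidneys Hoxa13 was called higher (1.21), and Hoxd12 changed by 0.37, Hoxd13 by 0.09 and Hoxc11 by -0.15. From E12.5 to D3 4 of 8 neuron, 4 of 5 tested skeletal muscle and 3 of 5 tested adrenal markers were lower, and the neuron markers summed to 46.8 and 65.9 at D3. Kidney cell types differed as well: 5 of 7 tubule, 4 of 9 ureteric trunk and collecting duct and 3 of 8 nephron progenitor markers were higher, and none lower. Lower were 3 of 5 smooth muscle markers (1 higher), 3 of 7 ureteric tip markers (none higher) and 2 of 8 stroma markers (1 higher). The part of all these markers in the Hox changes was not tested.

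Anterior genes also differed between v1 and serum. At D7, 4 of 37 tested Hox genes were called (10.8%), against 11.3% of all genes, and all 4 were higher in v1 (5.72% among all genes). Hoxa4 measured 3.40 and 2.65 in FBS and 18.3 and 15.48 in v1 (2.16 ± 0.23, adjusted p = 1.86e-08). Hoxa2 measured 3.40 and 4.67, and 18.9 and 16.5 (1.91 ± 0.22, adjusted p = 9.02e-08). Hoxa3 measured 24.2 and 19.9, and 74.2 and 66.9 (1.64 ± 0.15, adjusted p = 1.69e-09). Hoxc4 measured 26.7 and 22.1, and 60.2 and 55.5 (1.22 ± 0.19, adjusted p = 7.96e-06). The groups did not overlap for any of these genes, and for Hoxa2, Hoxa3 and Hoxa4 the FBS values were within or below the range of the kidneys. Further along the cluster Hoxa5 differed by 0.97, Hoxa6 by 0.68 and Hoxa7 by 0.16, none of them called. Of the HoxB and HoxD genes with the same numbers, Hoxb2 differed by -0.09, Hoxb3 by 0.57, Hoxb4 by -0.07, Hoxd3 by 0.35 and Hoxd4 by 0.03, also not called.

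Retinoic acid genes moved with the anterior HoxA genes in this comparison. Of 7 tested upstream regulators 4 were higher in v1 and none lower: Cyp26b1 (7.30) and Cyp26a1 (3.37), enzymes that degrade retinoic acid and are induced by it, and the receptors Rarb (1.77) and Rarg (1.25). Cyp26b1 measured 4.64 and 3.66 in FBS and 743 and 862 in v1. Hoxb1, another retinoid-responsive gene, measured 0.0516 and 0.0531 in FBS and 0.237 and 0.106 in v1, at or near the lowest step. The antisense noncoding genes Hoxaas3 (1.82) and Hoxaas2 (1.61) of the HoxA cluster were higher in v1. Macrophage markers (5 of 5 lower in v1, sums 1679 and 1693 in FBS, 111 and 103 in v1) and stroma markers (6 of 8 higher in v1, 516 and 564 in FBS, 1649 and 1734 in v1) differed too. The part of the marker changes and of the retinoic acid genes in the Hox difference was not tested. Leaving out FBS replicate 1 gave 8 called Hox genes, 7 higher and 1 lower.

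No posterior gene was called between these media. Hoxd12 measured 10.8 and 18.2 in FBS and 7.61 and 7.50 in v1 at D7 (-0.81, not called). Hoxd11 measured 92.3 and 90.1, and 84.8 and 80.0. Hoxc13, a gene of hair and nail, measured 1.13 and 1.11 in FBS, and its highest value elsewhere was 0.362.

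**Figure D3:**
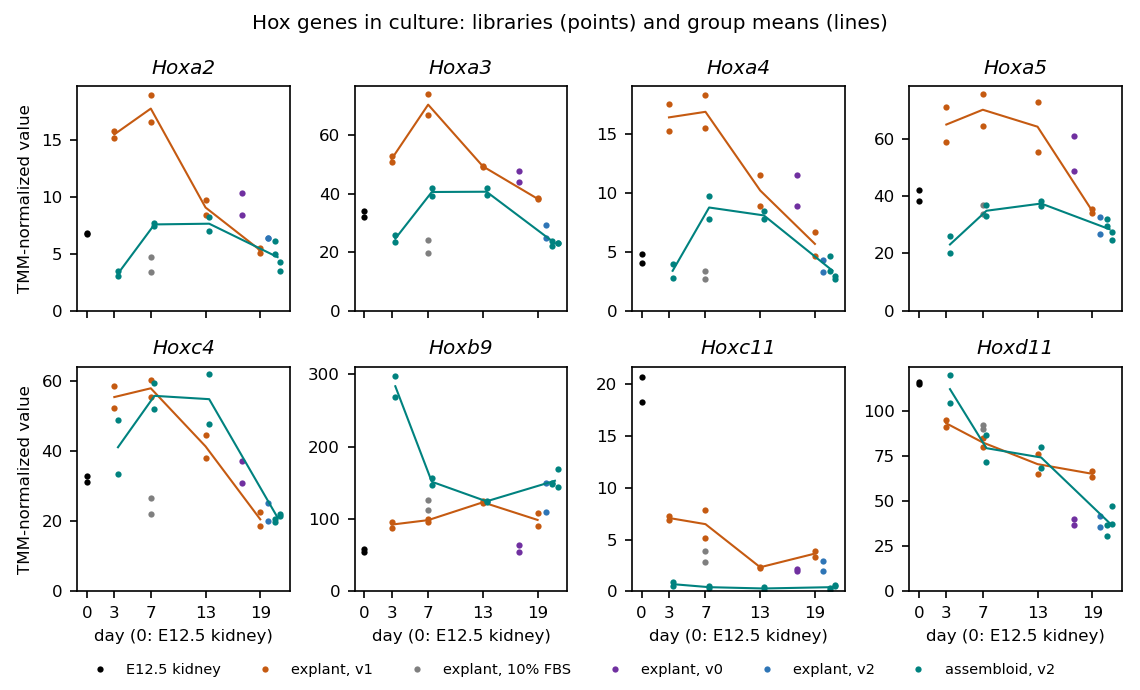
TMM-normalized values of 8 Hox genes by day of culture, with E12.5 kidneys at day 0; points are libraries, offset in x where groups share a day, and lines join the means of v1 explants and of assembloids (r1 and r2 averaged at D19). Hoxa2 to Hoxa5 are high in v1 explants at D3 and D7 and low in D3 assembloids, Hoxb9 is highest in D3 assembloids, and Hoxc11 stays under 1 in assembloids.

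Between D3 and D19 in v1 several Hox genes fell, 5 of them of groups 1 to 4. Of 37 tested Hox genes 7 were called (18.9%), against 16.4% of all genes, all 7 of them lower (5.96% among all genes), and 31 of 37 changes were negative. Hoxa4 measured 8.86 and 11.6 at D13 and 4.63 and 6.72 at D19 (-1.40 ± 0.23 from D3, adjusted p = 1.03e-05). Hoxa2 measured 8.36 and 9.74 at D13 and 5.06 and 5.54 at D19 (-1.39 ± 0.22, adjusted p = 7.14e-06). Hoxc4 measured 52.3 and 58.4 at D3, 38.1 and 44.6 at D13, and 22.5 and 18.6 at D19 (-1.39 ± 0.19, adjusted p = 5.43e-07). Hoxd4 measured 55.9 and 58.6 at D3 and 24.5 and 20.3 at D19 (-1.32 ± 0.20, adjusted p = 6.11e-06). The D3 and D19 values did not overlap for any of these. Hoxd1 (-1.47), Hoxd12 (-1.25) and Hoxc10 (-1.02) fell as well. Hoxc10 changed by -0.95 without D3 explant replicate 2 and by -0.92 without D19 explant replicate 2, and was then not called. Of the upstream regulators 3 of 7 fell, Cyp26b1 (-4.41), Rarb (-1.98) and Cyp26a1 (-1.50). Of the listed cofactors and modulators 4 of 10 fell, among them Meis2 (-1.38), Meis1 (-1.23) and Pbx3 (-1.10). With the larger pseudocount Hoxd1 (-0.70), Hoxd12 (-0.88) and Hoxc10 (-0.98) were not called. Cell type markers moved over the same days: 5 of 5 macrophage markers rose (sums 86.4 and 39.5 at D3, 368 and 273 at D19), as did 4 of 5 smooth muscle and 5 of 7 tubule markers, while 4 of 5 endothelial (372 and 325, then 54.6 and 59.7), 5 of 7 ureteric tip and 4 of 8 nephron progenitor markers fell. Their part in the Hox changes was not tested.

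The group 11 genes Hoxa11 and Hoxd11 were not called over this course. Hoxa11 in v1 measured 76.8 and 87.8 at D3, 98.3 and 101 at D7, 75.3 and 76.2 at D13, and 69.5 and 66.6 at D19. Hoxd11 measured 91.3 and 94.8, 84.8 and 80.0, 75.9 and 65.0, and 63.6 and 66.6 on the same days. Their changes from D3 to D19 were -0.27 and -0.51. Hoxa10 in v1 lay between 173 and 251 in all 8 libraries, and Hoxd10 between 28.8 and 45.8.

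Few Hox genes were called between late explants in different media. Between D19 v1 and D17 v0 explants 12 of 37 tested Hox genes had an adjusted p under 0.05. Of the 37, 1 was called (2.7%), against 5.45% of all genes, and was higher in v1 (2.63% among all genes). Hoxd12 measured 0.299 and 0.202 in v0 and 4.27 and 3.05 in v1 (1.92 ± 0.29, adjusted p = 2.25e-05). With the larger pseudocount it was not called (0.87). Beside it 6 of 8 nephron progenitor markers were higher in v1, and 4 of 5 smooth muscle and 3 of 5 endothelial markers lower, and their part was not tested. In v0 Hoxa4 measured 8.90 and 11.52 and Hoxa2 8.42 and 10.4, within or near their D13 values in v1, beside Cyp26b1 at 520.03 and 602. The days differ, so medium and time cannot be told apart between these groups. Between D19 v2 and D19 v1 explants limma called 0 of 37 Hox genes, against 2.84% of all genes. At an unadjusted p under 0.05 it found 12 Hox genes, and 6 had an adjusted p under 0.05 with changes under 1 in size, the largest being Hoxd11 (-0.74, adjusted p = 0.000914). Hoxd11 measured 41.8 and 35.8 in v2 and 63.6 and 66.6 in v1. Leaving out D19 v1 explant replicate 2 gave 1 called gene. D19 v2 replicate 2 had the lowest implied depth of the series.

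Early assembloids differed from explants by a block of the HoxA cluster. At D3, 8 of 37 tested Hox genes were called (21.6%), against 7.68% of all genes, with 7 lower (5.42% among all genes) and 1 higher (2.25%) in assembloids. Hoxa4 measured 2.79 and 3.99 in assembloids (-2.01 ± 0.23, adjusted p = 1.22e-07). Hoxa2 measured 3.01 and 3.50 (-1.96 ± 0.22, adjusted p = 9.94e-08), Hoxa3 26.0 and 23.4 (-1.05 ± 0.15, adjusted p = 5.93e-06), Hoxa5 26.1 and 20.2 (-1.46 ± 0.16, adjusted p = 5.89e-08) and Hoxa6 3.65 and 2.96 (-1.22 ± 0.25, adjusted p = 0.000654). In the D3 explants Hoxa3 measured 51.0 and 52.9, Hoxa5 59.0 and 71.1 and Hoxa6 8.68 and 9.19, so none overlapped. Hoxa7 differed by -0.85 and Hoxa9 by 0.17, neither called. Hoxa10 measured 285.5 and 260.1 in assembloids against 180.4 and 195 in explants, and Hoxa11 134 and 118 against 76.8 and 87.8, differences of 0.54 and 0.61 that did not reach the fold threshold. Because Hoxa3 overlaps Hoxa4, Hoxa5 and Hoxa6, these are not fully separate measurements. Without D3 assembloid replicate 2, or with the larger pseudocount, Hoxa3 changed by -0.97 and was not called. Hoxa6 (-0.84) was not called with the larger pseudocount either, nor after quantile normalization.

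Hoxc11 and Hoxa13 were the other genes lower in D3 assembloids. Hoxc11 measured 0.500 and 0.916, against 7.23 and 6.93 in explants (-2.28 ± 0.29, adjusted p = 6.28e-07). Over all days the highest Hoxc11 value of the 10 assembloid libraries, 0.916, was below the lowest of the 14 explant libraries, 1.96. Hoxa13 was at the lowest step in both assembloids and at 0.848 and 3.20 in the explants, at least 13-fold lower (-1.44). It was not called without D3 explant replicate 2 (-0.84) or with the larger pseudocount (-0.56). Hoxb9 was higher in assembloids, at 268 and 298 against 88.1 and 96.5 (1.61 ± 0.12, adjusted p = 3.84e-11). Both values were above every other library of the series, the next being 169. Its neighbour Hoxb8 differed by 0.34.

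Cell type markers differed between these D3 groups as well. Lower in assembloids were 7 of 8 stroma markers (525 and 512, against 1232 and 1388 in explants), 5 of 5 endothelial markers (17.4 and 18.5, against 372 and 325) and 5 of 5 macrophage markers (3.40 and 2.10, against 86.4 and 39.5, with Csf1r, C1qa and C1qb at the lowest step). Of the group 11 pathway genes 3 of 9 were higher in assembloids, among them Eya1 (1.43) and Osr1 (1.03). Of the upstream regulators 1 was lower, Cyp26a1 (-1.60), while Cyp26b1 measured 793 and 1005 in assembloids and 472 and 551 in explants. The part of these differences in the Hox differences was not tested.

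**Figure D4:**
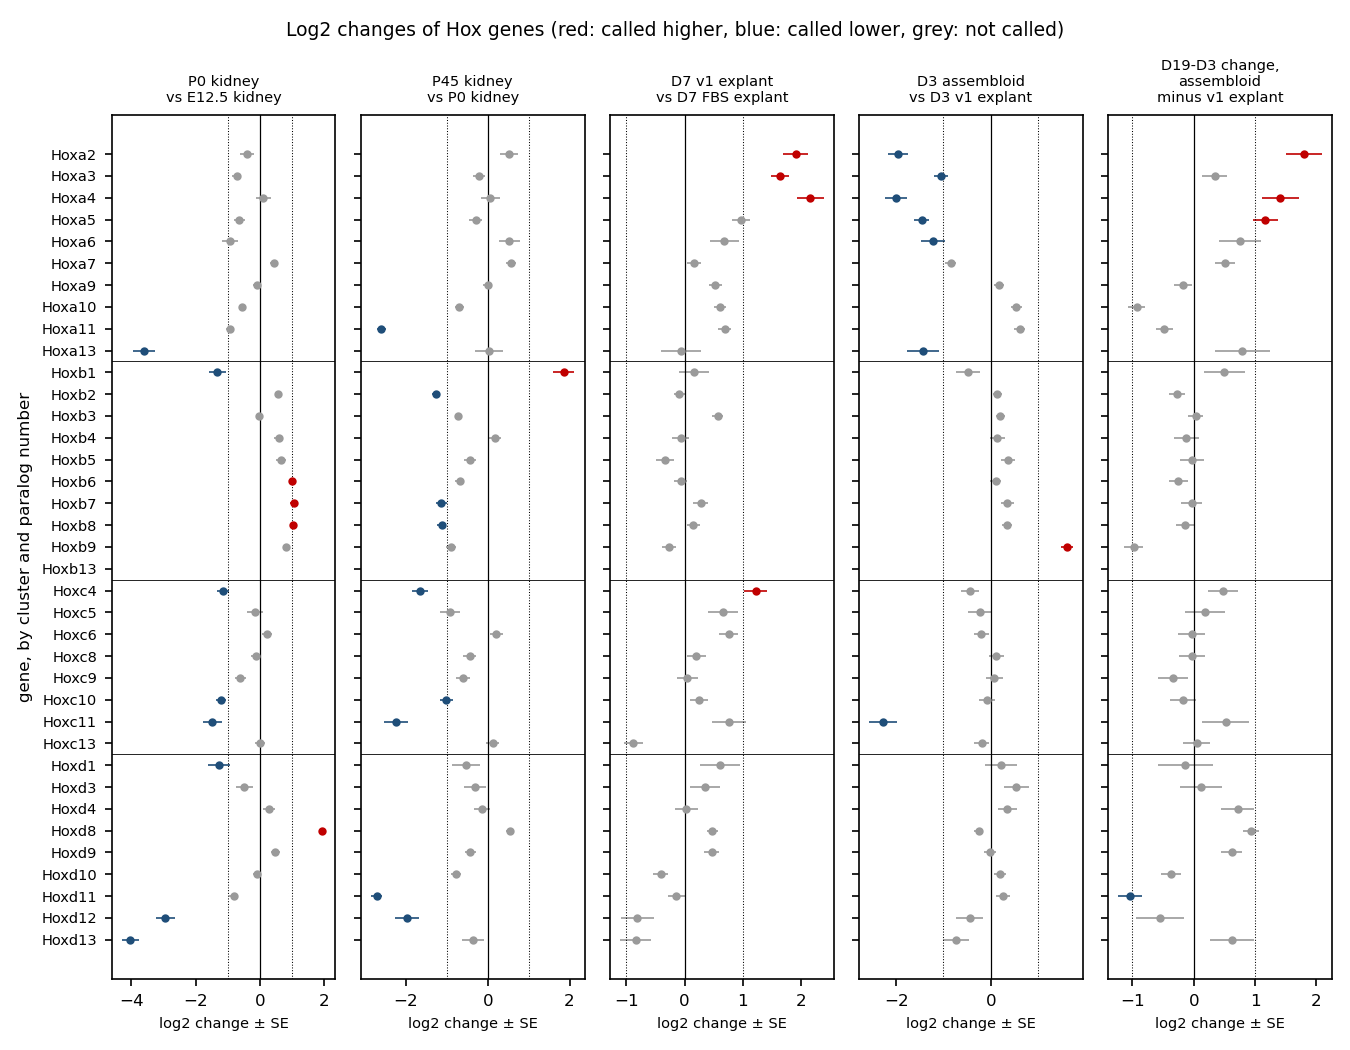
Log2 changes ± SE (limma) of tested Hox genes in 5 comparisons, by cluster and paralog number; red marks genes called higher, blue called lower and grey not called, and dotted lines mark a change of 1 in size. Hoxa2 to Hoxa6 form the blue block in D3 assembloids against explants, and Hoxa2 to Hoxa4 the red one in v1 against FBS.

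From D3 to D19 in assembloids Hoxd11 and Hoxd12 fell and Hoxd8 rose. In D19 (r1 and r2) against D3 assembloids 5 of 37 tested Hox genes were called (13.5%), against 17.4% of all genes, with 4 lower (6.45% among all genes) and 1 higher (10.9%). Hoxd11 measured 119.9 and 104 at D3, 71.8 and 86.8 at D7, 80.1 and 68.1 at D13, and 36.6, 30.5, 37.1 and 47.1 at D19 (-1.55 ± 0.12, adjusted p = 2.05e-11). Hoxc10 measured 102 and 91.9 at D3, 87.9 and 90.7 at D7, 78.1 and 77.4 at D13, and 40.3, 45.2, 41.4 and 39.8 at D19 (-1.20 ± 0.13, adjusted p = 1.54e-08). Hoxd8 measured 67.0 and 69.9 at D3, 84.7 and 83.9 at D13, and 135, 140.0, 151 and 144 at D19 (1.05 ± 0.09, adjusted p = 3.42e-11). All 4 D19 libraries lay beyond both D3 libraries for each gene. Hoxd12 (-1.79) and Hoxd1 (-1.62) fell as well. Hoxa11, at 134 and 118 at D3, was at 78.1, 69.5, 80.4 and 70.8 at D19, a change of -0.74 that was not called, and Hoxa10 went from 285.5 and 260.1 to between 128 and 146 (-0.95, not called). The group 11 pathway list fell in 6 of 9 cases, among them Gdnf (-2.52), Eya1 (-1.52) and Six2 (-1.43). Leaving out D3 assembloid replicate 2 gave 8 called Hox genes, 7 of them lower. Over the same days 7 of 7 tubule markers (sums 76.9 and 117 at D3, 491 to 570 at D19), 4 of 5 smooth muscle (30.5 and 37.4, then 443 to 610.1) and 4 of 5 podocyte markers rose. Of the ureteric tip markers 5 of 7 fell, and of the 8 nephron progenitor markers 5 fell and 2 rose. The part of these markers in the Hox changes was not tested.

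A difference of the D3 to D19 change between assembloids and v1 explants was called for 5 of 37 tested Hox genes (13.5%, against 9.50% of all genes). It came from a test of the difference of the changes. Among the called genes the difference was positive in 4 (5.48% among all genes) and negative in 1 (4.03%). At an adjusted p under 0.05 and any size of difference 11 Hox genes differed, among them Hoxd8 (0.94), Hoxb9 (-0.98) and Hoxa10 (-0.93). For all genes the share at that threshold alone was not counted. Hoxa2 changed by 0.41 in assembloids and -1.39 in explants, a difference of 1.80 ± 0.29 (adjusted p = 4.23e-05). Hoxa4 (1.41 ± 0.30, adjusted p = 0.00105) and Hoxa5 (1.17 ± 0.21, adjusted p = 0.000151) differed in the same direction. At D19 Hoxa5 was at 32.1, 29.5, 24.6 and 27.6 in assembloids and 34.05 and 35.6 in v1 explants, closer than at D3. Hoxd11 fell more in assembloids (difference -1.04 ± 0.19, adjusted p = 0.000159). Without D3 assembloid replicate 2 the difference of Hoxa5 was 0.99, and without D3 assembloid replicate 1 that of Hoxd11 was -0.94, neither of them then called. Without D19 r1 assembloid replicate 2 or D19 r2 assembloid replicate 1 the Hoxd11 difference was -0.98 or -0.96, and it was not called. Nor was it called with columns rescaled to equal totals (-0.93), after quantile normalization (-0.94) or with the larger pseudocount (-0.99).

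In the same medium and on the same day, 2 of 37 tested Hox genes were called between assembloids and explants (5.41%), against 5.44% of all genes. Both were lower in assembloids (3.29% among all genes). At an adjusted p under 0.05 and any size of change 9 differed. At D19 in v2 Hoxc11 measured 0.115, 0.322, 0.671 and 0.561 in assembloids and 1.96 and 2.97 in explants (-1.32 ± 0.25, adjusted p = 0.000239). Hoxa13 measured 0.115, 0.269, 0.0559 and 0.0561 in assembloids and 2.14 and 2.02 in explants (-1.49 ± 0.29, adjusted p = 0.000405). Both genes were lower without overlap, as at D3, but with the larger pseudocount neither was called (-0.56 and -0.58). Macrophage markers were lower in assembloids as well, 5 of 5 (sums 6.89 to 9.89 against 420.1 and 316, with C1qa and C1qb at the lowest step in assembloids), and their part was not tested. Without D19 v2 explant replicate 1, which leaves the library of lowest depth, 4 Hox genes were called, 3 lower and 1 higher. Between the assembloid sets r2 and r1 limma called 0 of 37 Hox genes, against 0.166% of all genes, with 1 Hox gene at an unadjusted p under 0.05, Hoxd11.

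Set against the newborn kidney, D19 assembloids had 1 of 37 tested Hox genes called (2.7%), against 12.4% of all genes. Hoxc11 was lower, as 6.76% of all genes were (-2.42 ± 0.25, adjusted p = 5.73e-09), from 5.53 and 7.21 at P0. Leaving out D19 r1 assembloid replicate 1 or D19 r2 assembloid replicate 2 gave 2 called genes. Between D19 v2 explants and P0 kidneys 2 of 37 were called (5.41%), against 16.2% of all genes, with 1 higher (7.16% among all genes) and 1 lower (9.03%). Hoxa13 was at least 14.2-fold higher in these explants (1.59 ± 0.34, adjusted p = 0.000353), and Hoxc11 was lower (-1.10 ± 0.29, adjusted p = 0.00239). Hoxc11 changed by -0.94 without P0 replicate 2 and by -0.89 without D19 v2 explant replicate 1, and was then not called. With the larger pseudocount neither gene was called in these explants (0.60 for Hoxa13, -0.69 for Hoxc11), and after quantile normalization Hoxc11 was not (-0.96). Against P0, endothelial markers were lower in both cultures (5 of 5 in assembloids, 4 of 5 in explants), and macrophage markers were lower in assembloids (4 of 5) and higher in explants (4 of 5). Their part was not tested. Both cultures are compared with the same P0 libraries. At an adjusted p under 0.05 and any size of change, 15 Hox genes differed from P0 in assembloids and 14 in explants. The share of all genes at that threshold alone was not counted. Among genes past the p threshold alone, Hoxd10 differed by -0.94 in assembloids and -0.72 in explants, Hoxd11 by -0.78 and -0.74, and Hoxa11 by 0.75 and 0.34.

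Hoxb7, whose promoter drives the reporter of all cultures, lay between 37.7 and 61.4 in the 24 culture libraries. The labels do not say whether the reporter transcript carries Hoxb7 sequence, and its part in these values was not tested. In culture it was called in no comparison. Of the kidneys, which lack the reporter, E15.5, P0 and P9 lay between 40.5 and 57.3, and E12.5 and P45 between 21.1 and 25.6, below every culture library.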

How the data were processed

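RNA had been prepared with Zymo Research kits and libraries built by NovoGene, per the labels' protocols. The submitters' processing notes name STAR 2.7.8a, Partek and the builds mm39 and mm10. Not given in the sources used here were the counting program and its strand option. The deposited table holds a TMM-normalized signal per gene, per its name, which is not a count and was never 0. Column totals ran from 879095 to 1503681 (median 962126), and 0 columns belonged to other samples. Gene spans in the table are those of mm39.

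The 38 genes were taken by symbol and gene type. Members, gene lists (21 lists, 149 genes) and comparisons were chosen with earlier results of these data known. Values were tested as log2(value + 0.962), a pseudocount of 1 ppm of the median total, for the 19264 genes reaching it in at least 2 samples. limma 3.58.1 in R 4.3.3 fitted 17 group means to all 34 samples, with trended and robust moderation (residual df 17, median prior df 9.93). D19 assembloid comparisons used the mean of r1 and r2. A fold bound for a group at the lowest step was taken against 3 steps per library and covers counting error only. The fit was tested on simulated data before use. Replicates correlated at 0.9811 to 0.9956, and none agreed within sampling noise. Any Hox gene could be named. Values in every sample went to groups 10, 11 and 13, Hoxb7 and, per comparison, up to 4 called genes in each direction with a higher group mean of at least 10 pseudocounts, and other lists were limited to 4 called genes each. Further genes and values were chosen after seeing the data, and a few genes are counted but not reported here by name. Promoters came from RefSeq (GRCm38.p6) and homeoboxes from GENCODE M21. Alternatives were other pseudocounts, filters and scalings, a fit on the compared groups alone, the replicate number as a block, leaving out each library, and E15.5 in place of E12.5 kidneys.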

Additional observations from a re-analysis of the deposited data

Results flagged for a closer look

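For 5 Hox genes, 4 of them given here, a difference of the D3 to D19 change between assembloids and v1 explants was called. It came from a test of the difference itself (limma, Benjamini-Hochberg adjusted p under 0.05 and a size of at least 1). Without the limit on size 11 Hox genes passed. The difference, assembloid minus explant on the log2 scale, was 1.8 for Hoxa2 (0.41 in assembloids, -1.39 in explants), 1.41 for Hoxa4 (0.00 and -1.40), 1.17 for Hoxa5 (0.29 and -0.88) and -1.04 for Hoxd11 (-1.55 and -0.51). The Hoxd11 difference was under 1 in size with equal column totals (-0.93), after quantile normalization (-0.94) and with a pseudocount 4 times larger (-0.99). Tissue source and medium (v2 against v1) differ together between these arms and cannot be told apart. By the same test the difference was negative for 4 of 5 macrophage markers and positive for 6 of 8 stroma and 4 of 5 endothelial markers. Their part in the Hox differences was not tested.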

How the results depend on the processing

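Of 465 results for called Hox genes under the planned settings other than leaving out a library, 437 kept direction and call, 28 kept direction and lost the call, and 0 reversed. With each library left out in turn, 290 of 314 kept the call, 24 lost it and 0 reversed. The replicate numbers did not pair the samples: over 136 pairs of groups their deviations correlated at -0.21 to 0.21 (median 0.01, 11 over 0.1). With the replicate number as a block all 67 results kept their call, and the P0 against E12.5 count was 13, as without it.

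With a pseudocount 4 times larger, the counts of called Hox genes were 8 for P0 against E12.5, 4 for D19 against D3 v1 explants, 0 for D19 v1 against D17 v0, 5 for D3 assembloids against explants, 0 for D19 assembloids against v2 explants, 0 for D19 v2 explants against P0, and 3 for the difference of changes. With one 4 times smaller they were 7 for v1 against FBS (5 higher, 2 lower) and 3 for D19 assembloids against P0. Equal column totals gave 20 for P45 against P0, and quantile normalization gave 1 for D19 v2 explants against P0. The cause of these shifts was not tested. With E15.5 in place of E12.5 kidneys, chosen after seeing the data, 1 gene was called at P0, where Hoxb1 turned to 0.01. In D3 v1 explants 7 were called, and Hoxa13 (1.21), Hoxd12 (0.37) and Hoxd13 (0.09) reversed.

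Leaving out 1 library gave 11 to 12 called genes for P0 against E12.5, 9 to 11 for P45 against P0, 8 to 10 for D3 explants against E12.5, 6 to 9 for D19 against D3 v1 explants, 5 to 8 for v1 against FBS, 1 for D19 v1 against D17 v0, 0 to 1 for D19 v2 against v1, 7 to 8 for D3 assembloids against explants, 5 to 8 for D19 against D3 assembloids, 2 to 4 for D19 assembloids against v2 explants, 1 to 2 for D19 assembloids against P0, 1 to 3 for D19 v2 explants against P0, 0 for r2 against r1, and 4 to 7 for the difference of changes. With 2 samples a group, a library left out leaves a lone sample that is assumed to vary like the other groups. Genes near the lowest step, such as Hoxa13 and Hoxc11 in assembloids, are limited by depth.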

Other observations

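Polycomb and trithorax proteins keep Hox genes off or on through chromatin. Of 13 listed genes of these complexes, 2 were lower at P0 than at E12.5 (6.81% of all genes were), 2 lower at P45 than at P0 (13.8%), 2 lower at D19 than at D3 in v1 explants (5.96%), and 3 lower at D19 than at D3 in assembloids (6.45%), and none was higher in these comparisons. Of 7 tested genes next to the clusters, 1 was higher at P0 than at E12.5 (12.7% of all genes were), 2 higher at P45 than at P0 (13.7%), and 2 higher in v1 than in FBS at D7 (5.72%). In assembloids 1 of the 7 was lower at D19 than at D3 (6.45%). With so few genes in each list, these counts are descriptions. The noncoding gene Hoxb5os was higher in D3 assembloids than in D3 explants (1.67), and Hoxaas2 was lower (-1.16).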
